A study of Mus musculus with 6 samples.

Results

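The genes described here are 10 immediate early genes, Fos, Fosb, Jun, Junb, Egr1, Egr2, Egr3, Atf3, Ier2 and Dusp1, taken by their symbols from a table of 53801 genes. All 10 had enough counts to be tested, among 15133 genes that passed the filter on low counts. RNA was sequenced from stromal cells sorted by FACS as PDPN+PDGFRα+ from MO5 melanomas, which are subcutaneous tumors of a B16 melanoma line carrying ovalbumin, grown in C57BL/6 mice. The 3 DTR libraries (genotype DTR+) came from young adult ADAM12-DTR mice, which carry a bacterial artificial chromosome that puts the diphtheria toxin receptor under Adam12 control. The 3 control libraries (genotype DTR-, Ctrl) came from littermates without the transgene. Mice of both groups received diphtheria toxin, so the toxin itself is shared and the genotype is what differs. In the study's design the toxin removes cells that express Adam12, and the comparison asks how the remaining PDPN+PDGFRα+ cells differ. Before the sort all tumors were cut up and digested with enzymes, and cells positive for CD45 or CD31 were gated out. Nothing in the sources says whether a library holds 1 tumor or several, so p-values measure only the spread between these libraries.

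Immediate early genes are switched on within minutes of a signal, without new protein synthesis, by transcription factors that already sit in the cell and are phosphorylated by MAP kinases and other kinases. The serum response factor with its ternary complex partners acts through the CArG box, and CREB and its relatives act through the cAMP response element. Their messages are short-lived, because AU-rich words in the 3′ untranslated region lead to rapid decay. In fibroblasts they are the classical response to serum and growth factors, and they are also known to rise when tissue is digested to single cells. Most encode transcription factors: Fos and Jun proteins pair as AP-1, EGR proteins bind GC-rich sites, and Atf3 belongs to the CREB family. Dusp1 encodes a phosphatase that switches MAP kinases off again.

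Promoter words through which such signals are known to act are shown first, since they differ from gene to gene. RefSeq promoters on GRCm38.p6, from 250 bases before to 50 bases after each annotated start, were found for 7 of the 10 genes, namely Fos, Fosb, Jun, Junb, Egr2, Atf3 and Dusp1. The core of the cAMP response element (TGACG on either strand) occurred in 6 of these 7 genes, all but Jun, where 23.0% of the 27025 genes in the table had it in any of their promoters and 20.8% of all 32851 promoters held it. The whole palindrome TGACGTCA, which contains the core on both strands, occurred only in Dusp1 among the 7, in 2.03% of all genes and in 1.79% of all promoters. The CArG box occurred only in Egr2 among the 7, in 1.81% of all genes and in 1.63% of all promoters. It was searched for as CC, 6 letters of A or T, and GG, so a looser match or one outside the windows would be missed. Egr2 has 5 promoters in the table and the other 6 genes have 1 each. The AP-1 word TGANTCA was found in 0 of the 7, in 8.97% of all genes and in 7.81% of all promoters, which says only that these letters are not in the windows. In the stretches below, written 5′ to 3′ on the strand of the gene, capitals mark a core, a palindrome or a CArG box.
Fos, chr12:85473741-85473848, plus strand: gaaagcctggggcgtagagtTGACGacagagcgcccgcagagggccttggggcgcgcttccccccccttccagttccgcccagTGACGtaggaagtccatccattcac
Fosb, chr7:19310081-19310125, minus strand: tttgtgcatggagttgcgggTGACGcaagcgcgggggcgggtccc
Junb, chr8:84978830-84978874, minus strand: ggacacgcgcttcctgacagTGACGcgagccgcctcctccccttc
Egr2, chr10:67537738-67537838, plus strand: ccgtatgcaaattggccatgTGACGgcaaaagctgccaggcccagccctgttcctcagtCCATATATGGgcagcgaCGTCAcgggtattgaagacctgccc
Atf3, chr1:191183334-191183360, minus strand: ggaagctattaatagcattaCGTCAgc
Dusp1, chr17:26508588-26508683, minus strand: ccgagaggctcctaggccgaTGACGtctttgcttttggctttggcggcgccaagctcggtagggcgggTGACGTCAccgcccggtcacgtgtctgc

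The first core in Fos lies 129 bases and the second 66 bases before the start, and the Atf3 core lies 7 bases before it. The Dusp1 palindrome lies 143 bases before the start. Egr2 has several annotated starts, and the CArG box shown lies 72 bases before one of them, between 2 cores on opposite strands. A match of letters is a description of the sequence and no evidence that a factor was bound.

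The genes also resemble each other in build. With GENCODE M21 gene models on GRCm38, 8 of 10 spanned less than 10 kb, all but Atf3 and Dusp1, against 27.6% of tested genes. Fos lies on chromosome 12 from 85473890 to 85477273, Fosb on chromosome 7 from 19302696 to 19310051, Jun on chromosome 4 from 95049034 to 95052222, and Junb on chromosome 8 from 84974484 to 84978718. Egr2 lies on chromosome 10 from 67535475 to 67542188, Egr3 on chromosome 14 from 70077203 to 70082614, and Ier2 on chromosome 8 from 84661331 to 84662852. Atf3 lies on chromosome 1 from 191170296 to 191218039, and the longest annotated span, that of Dusp1, runs on chromosome 17 from 26505590 to 26562128. Both genes are on the minus strand, and their promoter stretches shown above, which end at 191183360 and 26508683, lie inside these spans. The GENCODE spans of Atf3 and Dusp1 thus reach upstream of the starts used for the promoter words. With introns counted on the longest coding transcript of each gene, Jun, Junb and Ier2 had no intron, which held for 2.27% of the tested genes counted in this way, and none of the 10 had more than 3. The annotated span of Junb, 4235 bases, is longer than its 2301 bases of exon, so the gene model also holds sequence outside exons. The word ATTTA, the core of many AU-rich elements, occurred in the 3′ untranslated region of 9 of 10 genes and of 69.8% of coding genes tested. Ier2 was the gene without it, and Egr3 held the most copies, 7. Per kilobase of that region the median was 2.59 copies in the 10 genes and 1.31 in coding genes tested.

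Total counts ranged from 22339635 to 34271929 per library. Fibroblast markers were present in every library, and the 10 of them summed to 5217 to 13691 CPM (counts relative to the size of the library, scaled by TMM) in Ctrl and 5611 to 14170 CPM in DTR. Transcripts of 12 melanoma markers were also abundant, from 19791 to 22795 CPM in Ctrl and from 18675 to 21897 CPM in DTR, so the counts below come from libraries that hold melanoma cell RNA as well as stromal RNA. The T cell, macrophage, endothelial and mural lists summed to at most 249 CPM in any library, and 7 of 8 neutrophil markers were below the filter. In such bulk libraries fewer cells of a type and less RNA per cell cannot be told apart. Adam12, the gene whose cells were targeted, was at 216, 181 and 175 CPM in Ctrl and 165, 151 and 112 CPM in DTR, which did not overlap, with a log2 fold change of -0.42 (SE 0.154, n = 3 per group, adjusted p = 0.602, edgeR quasi-likelihood test).

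No difference between DTR and Ctrl passed the test for any of the 10 genes. With p-values of the edgeR quasi-likelihood fit adjusted by the Benjamini-Hochberg method across all tested genes, 0 of 10 came under 0.05, where the share over all genes was 0%. At an unadjusted p under 0.05 the count was also 0 of 10, against 7.92% of all genes. The 3 DTR libraries lay entirely above or below the 3 Ctrl libraries in 0 of 10, against 14.5% of all genes. With 8 of 10 values above 0, the median log2 fold change of the 10 genes was 0.23, beside a median of -0.0029 over all tested genes. What the genes did show was a large spread between libraries of the same group, and the same libraries were high for nearly all of them.

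Fos encodes an AP-1 subunit that binds DNA as a dimer with a Jun protein. Its level was 359, 204 and 210.5 CPM in Ctrl 1, 2 and 3, and 269, 198 and 413 CPM in DTR 1, 2 and 3. One library of each group, Ctrl 1 and DTR 3, was well above the others, and the lowest value of all was a DTR library. The group means were 258 ± 87.6 CPM in Ctrl and 293 ± 109 CPM in DTR (SD, n = 3), a log2 fold change of 0.19 (SE 0.300, 95% interval -0.51 to 0.88, adjusted p = 0.880, edgeR).

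Fosb, a second Fos family subunit, was at 205, 85.8 and 89.1 CPM in Ctrl and at 136, 100.3 and 219 CPM in DTR. The value of Ctrl 1 was 2.39 times that of the lowest Ctrl library, and only DTR 3 exceeded it. Its log2 fold change was 0.26 (SE 0.388, 95% interval -0.63 to 1.16, adjusted p = 0.869, edgeR).

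Jun encodes the main Jun partner of AP-1. It was at 288, 144 and 146 CPM in Ctrl and at 183, 150.0 and 332 CPM in DTR. Ctrl 2, Ctrl 3 and DTR 2 were almost level, and Ctrl 1 and DTR 3 again stood above them. The log2 fold change was 0.20 (SE 0.355, 95% interval -0.62 to 1.02, adjusted p = 0.895, edgeR). Jun shares 689 bases with the antisense gene Junos, which had 24 to 81 counts per library where Jun had 3445 to 7531, and the counting used strand.

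Junb, a Jun protein that can restrain Jun in several settings, was at 101, 65.9 and 67.6 CPM in Ctrl and at 80.0, 61.4 and 144 CPM in DTR. Both the lowest and the highest library were DTR libraries. Its log2 fold change was 0.29 (SE 0.309, 95% interval -0.43 to 1.00, adjusted p = 0.819, edgeR). Junb overlaps the opposite-strand gene Prdx2 by 351 bases, and Prdx2 had 2810 to 4796 counts per library where Junb had 1573 to 3275.

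Egr1, a zinc finger factor induced by growth factors and injury, had the largest within-group SD of log2 CPM of the 10 genes, 0.983. It was at 139, 51.2 and 43.0 CPM in Ctrl and at 82.6, 52.0 and 217 CPM in DTR. The highest DTR library was 4.17 times the lowest, and the highest Ctrl library 3.22 times the lowest. The log2 fold change was 0.59 (SE 0.589, 95% interval -0.77 to 1.95, adjusted p = 0.798, edgeR), so that the interval held folds from 0.587 to 3.87.

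The other EGR genes were far lower and ordered the libraries differently. Egr2, known for its role in Schwann cells and lymphocytes, was at 6.82, 4.10 and 4.15 CPM in Ctrl and at 3.26, 4.77 and 4.23 CPM in DTR. Ctrl 1 was the highest of the 6 libraries here, and DTR 3 lay among the rest. Its log2 fold change was -0.30 (SE 0.299, 95% interval -0.99 to 0.39, adjusted p = 0.80, edgeR), with 96 to 167 counts per library.

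Egr3, which Egr1-inducing signals also switch on, was at 6.08, 1.76 and 2.36 CPM in Ctrl and at 1.57, 2.45 and 3.04 CPM in DTR. DTR 3 was the highest DTR library, and Ctrl 1 was the highest of all 6. The log2 fold change was -0.53 (SE 0.514, 95% interval -1.72 to 0.65, adjusted p = 0.793, edgeR). It had only 42 to 149 counts per library, and counting error alone was 15.4% in the lowest library, against 1.43% for Fos.

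Atf3, a stress-induced member of the CREB family, was at 66.6, 29.4 and 41.2 CPM in Ctrl and at 46.1, 31.6 and 121 CPM in DTR. DTR 3 was 3.83 times the lowest DTR library. Its log2 fold change was 0.53 (SE 0.492, 95% interval -0.61 to 1.67, adjusted p = 0.785, edgeR), the lowest adjusted p of the 10 genes.

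Ier2, an intronless gene for a nuclear protein, was at 36.8, 19.6 and 25.4 CPM in Ctrl and at 25.9, 23.3 and 41.4 CPM in DTR. It had the smallest difference of the 10, with a log2 fold change of 0.15 (SE 0.279, 95% interval -0.50 to 0.79, adjusted p = 0.904, edgeR). Dusp1 was at 94.5, 66.5 and 59.0 CPM in Ctrl and at 75.9, 63.5 and 125 CPM in DTR. For Dusp1, too, the highest library was DTR 3 and the next was Ctrl 1. Its log2 fold change was 0.26 (SE 0.269, 95% interval -0.36 to 0.88, adjusted p = 0.804, edgeR). Dusp1 shares 640 bases with Ergic1 on the opposite strand, which had 1829 to 2699 counts per library where Dusp1 had 1588 to 2834. In GENCODE M21 its span also overlaps 2 genes on its own strand. AC122252.1, annotated as sense intronic, shares 1853 bases of span and the pseudogene AC122252.4 shares 227. Neither was among the genes counted here, and these bases are of whole spans, not of exons. Any effect on the Dusp1 counts was not tested. Two-sided exact permutation tests of log2 CPM for the single genes gave p from 0.5 to 0.7, where 3 against 3 libraries cannot go below 0.1.

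**Figure D1:**
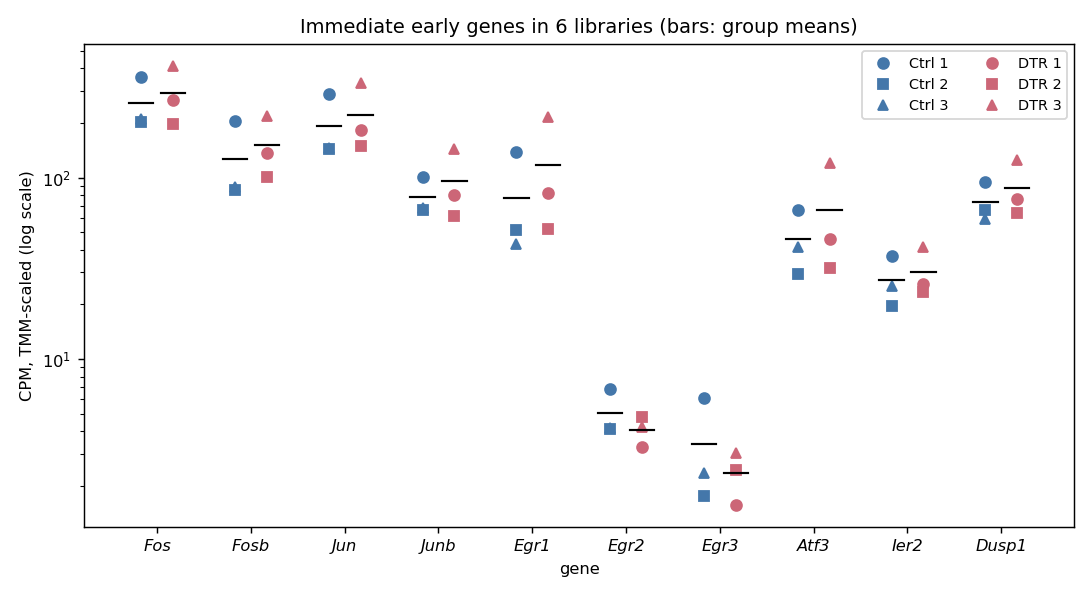
CPM of each gene (log scale, TMM-scaled) in the 3 Ctrl libraries (blue) and the 3 DTR libraries (red), with the symbol giving the replicate number and the bar the group mean. Ctrl 1 is the highest Ctrl library in 10 of 10 genes and DTR 3 the highest DTR library in 9 of 10, and the groups overlap for every gene.

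**Figure D2:**
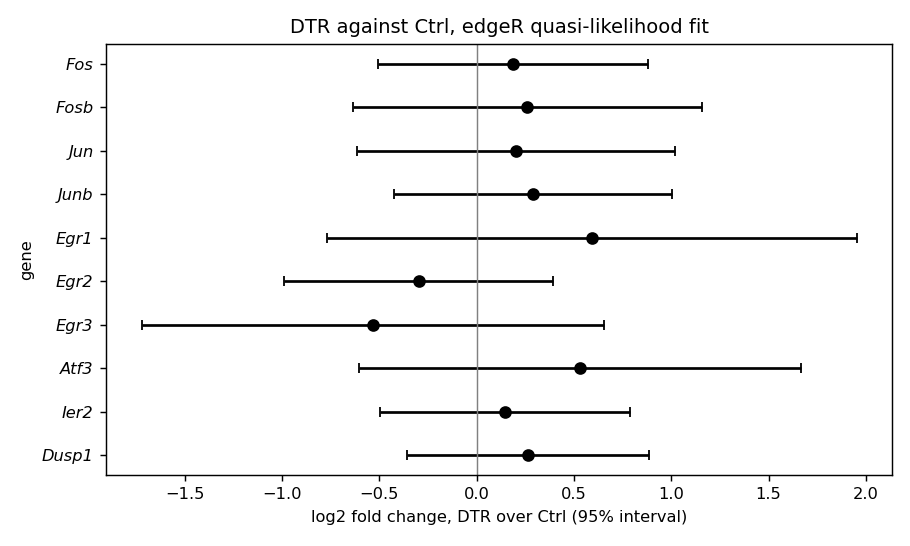
Log2 fold change of DTR over Ctrl for each gene from the edgeR quasi-likelihood fit (points) with its 95% interval (bars). All 10 intervals include 0, and the widest is that of Egr1, from -0.77 to 1.95.

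Per kilobase of exon, over the 6 libraries, Fos was the highest at 117 CPM per kb, followed by Jun at 65.0 and Junb at 37.7. Atf3 at 26.0, Dusp1 at 24.4, Fosb at 22.3, Egr1 at 21.7 and Ier2 at 18.9 CPM per kb came next. Egr2 at 1.34 and Egr3 at 0.653 CPM per kb closed the order. Neighbours in this order overlapped in their ranges over libraries, with 1 exception, the step from Ier2 down to Egr2. Within single libraries, however, Fos was above Jun, Jun above Junb and Junb above Atf3 in 6 of 6, as was Egr2 above Egr3.

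Within each group the genes spread widely between libraries. The SD of log2 CPM within a group had a median of 0.546 over the 10 genes, from 0.351 for Egr2 to 0.983 for Egr1. It was 0.230 at the median of all tested genes and 0.147 at the median of the 8793 genes of at least 10 CPM. All 10 lay above the median of all tested genes, from the 64.4th percentile for Egr2 to the 93.2nd for Egr1. The 8 genes of at least 10 CPM, that is all but Egr2 and Egr3, lay above the median of genes at that level. No test was made of this spread.

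**Figure D3:**
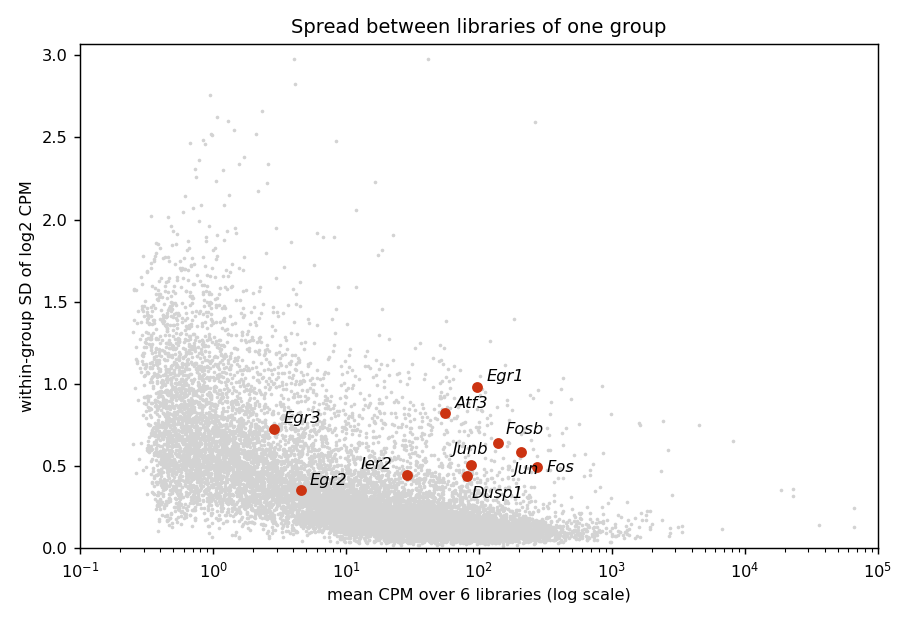
Within-group SD of log2 CPM against mean CPM over the 6 libraries (log scale) for all tested genes (grey) and the 10 immediate early genes (red). Egr1 (0.983) and Atf3 (0.820) lie highest of the 10, well above most genes of the same level, and Egr2 (0.351) lies within the cloud.

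The libraries that were high were shared. Ctrl 1 was the highest Ctrl library and DTR 3 the highest DTR library for 9 of 10 genes, the exception being Egr2, against 13% of all tested genes. DTR 3 was the highest and Ctrl 1 the second of all 6 libraries for 8 of 10, the exceptions being Egr2 and Egr3, against 4.61% of all tested genes. For the same 8 genes DTR 1 came next, an order found in 2.25% of tested genes. Summed over the 10 genes, the level was 1302, 672 and 688 CPM in Ctrl and 904, 688 and 1619 CPM in DTR. The mean deviation of the 10 genes from their 6-library average was 0.57, -0.45 and -0.35 on the log2 scale in Ctrl, and -0.14, -0.34 and 0.71 in DTR. The group means of this deviation were -0.08 ± 0.56 in Ctrl and 0.08 ± 0.56 in DTR (SD, n = 3).

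Markers of fibroblasts moved with the immediate early genes. The mean deviation of the 10 fibroblast markers was 0.48, -0.78 and -0.36 in Ctrl, and 0.19, -0.48 and 0.94 in DTR. All 10 of these markers had Ctrl 1 as the highest Ctrl library and DTR 3 as the highest DTR library, and 4 of 10 had DTR 3 first and Ctrl 1 second of the 6. The sorting marker Pdgfra was at 125, 42.7 and 63.0 CPM in Ctrl and 96.7, 54.0 and 132 CPM in DTR, and Pdpn was at 73.3, 46.0 and 46.9 CPM in Ctrl and 67.3, 49.0 and 99.2 CPM in DTR. Melanoma markers went slightly the other way, with deviations of -0.11 in Ctrl 1 and -0.13 in DTR 3 and from -0.08 to 0.13 in the other libraries. After subtraction of the fibroblast marker deviation, the within-group SD of the 10 genes' mean deviation was 0.210, where it had been 0.559. Subtracted in this way, the values were 0.09, 0.33 and 0.01 in Ctrl and -0.33, 0.14 and -0.23 in DTR, which again overlapped. The part of fibroblast content in the spread of the immediate early genes was not tested.

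With the fibroblast marker deviation added to the model as a covariate, an alternative chosen after seeing the data, the 10 log2 fold changes all lay below 0, with a median of -0.13. Of the 10 genes, 0 passed the test under it, with adjusted p from 0.748 for Egr3 to 0.975 for Dusp1 (edgeR). The 8 genes that were above 0 without the covariate thus changed sign with it.

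A single library also decided the direction. Without DTR 3 all 10 log2 fold changes were below 0, with a median of -0.18. Without Ctrl 2 the value of Ier2 was -0.045. Without Ctrl 1 the value of Egr2 shrank to -0.015. The median without Ctrl 1 was 0.51, 9 of 10 were above 0, and Egr1 reached 1.31 (SE 0.549) and Fosb 0.79 (SE 0.295). Their unadjusted p-values in that comparison were 0.0468 and 0.0302 and their adjusted p-values 0.594 and 0.585 (edgeR), the only 2 of 10 under an unadjusted 0.05, against 8.35% of all genes tested without Ctrl 1. Fosb, Jun and Egr1, 3 of 10, then no longer overlapped between groups, against 26.1% of all genes.

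**Figure D4:**
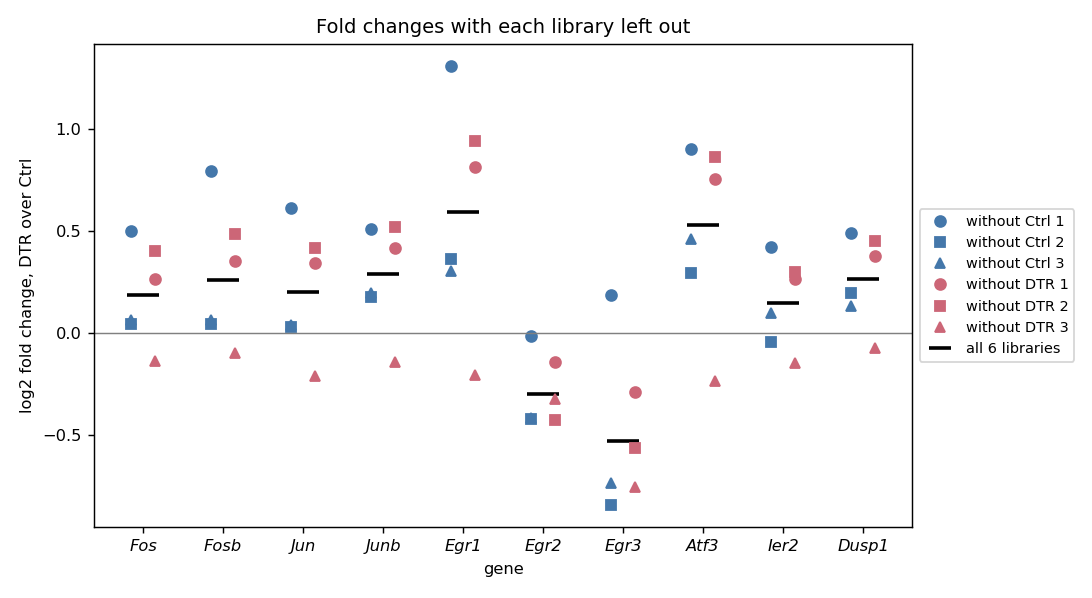
Log2 fold change of DTR over Ctrl for each gene with all 6 libraries (black bar) and with 1 library left out (blue, a Ctrl library, and red, a DTR library, with the symbol giving the replicate). Without DTR 3 all 10 values lie below 0, and without Ctrl 1 the value of Egr1 rises to 1.31.

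Other genes of the same response were read from the same fit. Of 30 other immediate early effector genes, 23 had Ctrl 1 and DTR 3 as the highest libraries of their groups, and 17 had DTR 3 first and Ctrl 1 second of the 6. Their log2 fold changes had a median of 0.19 and ran from -1.13 for Lif, a cytokine of the IL-6 family, to 0.89 for Il6. The cytokine Il6 was at 24.7, 5.32 and 8.54 CPM in Ctrl and at 20.3, 8.99 and 42.3 CPM in DTR, so DTR 3 was again the highest. The cytokine Lif was at 6.21, 3.06 and 2.78 CPM in Ctrl and at 0.960, 1.80 and 2.78 CPM in DTR. Of these 30 genes, 0 passed the adjusted test. An unadjusted p under 0.05 was found for 2 of 30, near the 7.92% of all genes, and these were Hbegf (-0.46) and Zfp36l1 (0.44), named after their values were seen.

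Of 16 other immediate early transcription factors, 14 were tested, of which 6 had Ctrl 1 and DTR 3 as the highest libraries of their groups and 5 had DTR 3 first and Ctrl 1 second. Their median log2 fold change was 0.19, from -0.41 for the nuclear receptor Nr4a3 to 0.78 for Cebpd. Nr4a3 was at 359, 468 and 368 CPM in Ctrl and at 306, 285 and 312 CPM in DTR. Its groups did not overlap and its Ctrl 1 was the lowest Ctrl library, unlike that of Fos or Egr1 (adjusted p = 0.602, edgeR). Cebpd was at 20.6, 12.2 and 15.8 CPM in Ctrl and at 20.8, 12.7 and 49.9 CPM in DTR. At an unadjusted p under 0.05, 4 of the 14 were lower in DTR and 0 higher, against 7.92% of all genes in either direction. These were Nr4a1 (-0.29), Nr4a3, Klf10 (-0.33) and Bhlhe40 (-0.34), named after their values were seen, and 0 of 14 passed the adjusted test.

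The 12 other AP-1 subunits had a median log2 fold change of 0.10, from -0.38 for Batf to 0.38 for Maff, with 5 of them having Ctrl 1 and DTR 3 as the highest libraries of their groups and 3 having DTR 3 first and Ctrl 1 second. Only Mafg (-0.32), named after its value was seen, had an unadjusted p under 0.05, 1 of 12 against 7.92% of all genes. Without DTR 3 the medians of these 3 lists were below 0 as well, at -0.13 for the effectors, -0.12 for the other transcription factors and -0.22 for the AP-1 subunits. Of 9 tested dual-specificity phosphatases other than Dusp1, 0 had an unadjusted p under 0.05, with values from -0.26 for Dusp8 to 0.56 for Dusp10. For 20 genes, mostly of kinases and promoter-bound factors that act upstream of these genes, the mean deviation over the list ran from -0.05 to 0.07 between libraries. Single genes moved in both directions, and 5 of 20 did not overlap between groups, 3 lower and 2 higher in DTR, against 14.5% of all genes. Of the 20, 2 had Ctrl 1 and DTR 3 as the highest libraries of their groups and 0 had DTR 3 first and Ctrl 1 second. Among them 2, Map2k1 (-0.24) and Map2k2 (-0.27), named after their values were seen, had an unadjusted p under 0.05, against 7.92% of all genes. Their values ran from -0.28 for Rps6ka1 to 0.28 for Mapk8.

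Heat shock genes, a second response that stressed or handled cells are known to make, had a mean deviation from -0.10 to 0.10 between libraries. Single genes moved in both directions, with 10 of 16 log2 fold changes below 0 and 6 above. Summed over the list, the level was 7553, 7556 and 7552 CPM in Ctrl and 7568, 6514 and 6329 CPM in DTR. Ctrl 1 and DTR 3 were the highest libraries of their groups for 3 of 16, against 13% of all genes, and 0 of 16 had DTR 3 first and Ctrl 1 second, against 4.61%. The inducible chaperone Hspa1a was low in every library, from 1.06 to 3.43 CPM, and had the lowest log2 fold change of the list, -0.54. Hspb8 had the highest, 0.42. An unadjusted p under 0.05 was found for 3 of 16, against 7.92% of all genes, and these were Hspb8 and also Dnajb4 (0.35) and Hsp90ab1 (-0.26), which were named after their values were seen, and 0 of 16 passed the adjusted test (edgeR).

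**Figure D5:**
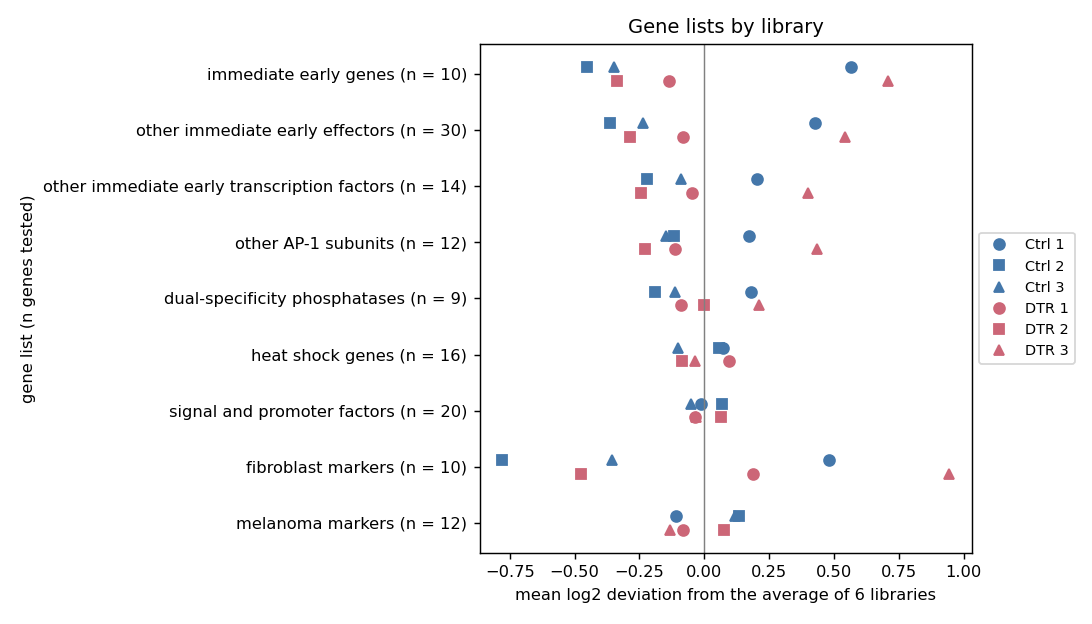
Mean log2 deviation of each gene list from its average over the 6 libraries, with Ctrl libraries in blue and DTR libraries in red and the symbol giving the replicate. The immediate early genes run from -0.45 in Ctrl 2 to 0.71 in DTR 3 and the fibroblast markers from -0.78 to 0.94, with the same 3 libraries at the top. The heat shock list runs from -0.10 to 0.10 and the signal list from -0.05 to 0.07, as means over genes that moved in both directions.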

How the data were processed

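The deposited table holds raw read counts per gene for 6 libraries made with a stranded total RNA kit. Per the labels and the study's methods the authors trimmed reads with cutadapt 3.4, aligned them to GRCm38 with STAR 2.7.3a and counted them by strand with featureCounts 2.0.1. The table's other columns hold the authors' scaled counts (6 columns) and their own test results, and were not used. Genes were filtered with filterByExpr (minimum count 10, minimum total 15), scaled by TMM and tested with the edgeR 4.0.16 quasi-likelihood test, two-sided, with Benjamini-Hochberg adjustment over 15133 genes, and DESeq2 1.42.0 was an alternative. The steps were tested on simulated data. Log2 CPM values used a prior count of 2. With 3 libraries per group, intervals are wide. Depth per library sets counting error only.

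The 10 genes and all lists were chosen with earlier results of these data known. All 10 were named, with the lowest and highest gene of each comparison list, and the 5 genes most like them by Pearson r over the 6 libraries (at least 1 CPM and at least the lowest SD of log2 CPM among the 10). Names missing for 27987 rows came from GENCODE M21 for 27841 of them.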

Additional observations from a re-analysis of the deposited data

How the results depend on the processing

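Of the 10 genes, 0 passed an adjusted p of 0.05 in each of the 15 alternative fits, with adjusted p from 0.585 to 0.998 (edgeR and DESeq2). The DESeq2 Wald test called 31 genes in all. Of 150 values of single genes, 132 kept their sign. With the fibroblast covariate, added after seeing the data, the signs turned for Fos (-0.14), Fosb (-0.10), Jun (-0.17), Junb (-0.090), Egr1 (-0.088), Atf3 (-0.13), Ier2 (-0.13) and Dusp1 (-0.028). With 1 library left out, log2 fold changes ran from -0.14 to 0.50 for Fos, -0.10 to 0.79 for Fosb, -0.21 to 0.61 for Jun, -0.14 to 0.52 for Junb, -0.21 to 1.31 for Egr1, -0.43 to -0.015 for Egr2, -0.85 to 0.19 for Egr3, -0.24 to 0.90 for Atf3, -0.15 to 0.42 for Ier2 and -0.073 to 0.49 for Dusp1. The median ran from -0.18 to 0.51, and the genes without overlap between groups from 0 to 3. The cause of these turns was not tested. With a replicate block the median was 0.20 and 0 of 10 passed, and the deviations of same-numbered libraries, which come from different animals, correlated at 0.11, 0.13 and -0.04, so the numbers do not pair them. Other scalings and filters gave medians from 0.23 to 0.27 with the same signs.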

Other observations

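The genes whose log2 CPM followed the mean of the 10 immediate early genes most closely over the 6 libraries, among 3497 genes outside all lists with a mean of at least 1 CPM and an SD of log2 CPM of at least 0.347, the lowest among the 10, ranked by Pearson r, were Il17ra, which encodes an interleukin 17 receptor chain (r = 0.987), A230072C01Rik (r = 0.983), Gm4117 (r = 0.981), Actr3b (r = 0.979) and Rasl11b (r = 0.977). The 6 points share depth and composition of the libraries, and no test was made. Il17ra was at 46.7, 26.5 and 28.2 CPM in Ctrl and at 34.1, 30.9 and 51.7 CPM in DTR. Its highest libraries were Ctrl 1 and DTR 3 as for Fos, which follows from the choice by r and is no separate observation. The other 4 lay between 0.461 and 2.25 CPM in every library. The adjusted p of Il17ra between DTR and Ctrl was 0.850 (edgeR quasi-likelihood test, log2 fold change 0.20).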
